A study of Mus musculus with 12 samples.

Results

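This section describes how 350 miRNAs were distributed between the nucleus and the cytoplasm of C166 cells after 2 h of hypoxia. C166 is an established endothelial cell line derived from mouse yolk sac, and a single line stands for the cell type here. The comparison used 2 nuclear libraries (nucleus 2 h, replicates 1 and 2) and 2 cytoplasmic libraries (cytoplasm 2 h, replicates 1 and 2), out of 12 libraries in the series, and every miRNA in the deposited table was a member. Cells of the 2 h groups were kept at 1% oxygen for 2 h, those of the 24 h groups at 1% oxygen for 24 h, and those of the 0 h groups at atmospheric oxygen (normoxia), and the labels name no genetic change and no other treatment. Each fraction and time had 2 replicates, which the study calls biological, and small RNA was sequenced from each fraction (sRNA-seq).

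A miRNA is cut from its hairpin precursor in steps that begin in the nucleus, where Drosha releases the hairpin, and continue in the cytoplasm, where Dicer removes the loop. Either strand of the remaining duplex, the 5p arm or the 3p arm, can be loaded into an Argonaute protein, and the strand that is not loaded is usually degraded. The loaded miRNA pairs with target RNAs through its seed, the bases at positions 2 to 8. Mature miRNAs act mainly on mRNAs in the cytoplasm, and Argonaute proteins and miRNAs are also found in the nucleus.

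The sequences below are those of the miRNAs on which the results turn. They were matched by name to RefSeq miRNA records (GRCm38.p6), which held 301 of the 350 miRNAs, and they are written 5′ to 3′ with the seed in capitals. The first set is 9 let-7 5p arms, which share a seed and lay on the nuclear side.
let-7a-5p: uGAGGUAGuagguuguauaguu
let-7b-5p: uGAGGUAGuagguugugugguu
let-7c-5p: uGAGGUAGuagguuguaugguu
let-7d-5p: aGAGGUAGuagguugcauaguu
let-7e-5p: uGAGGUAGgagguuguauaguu
let-7f-5p: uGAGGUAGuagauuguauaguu
let-7g-5p: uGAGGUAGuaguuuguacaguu
let-7i-5p: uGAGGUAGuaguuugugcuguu
miR-98-5p: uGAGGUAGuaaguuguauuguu

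The 3p arms below, of the same family, are shown because they lay on the opposite side. The let-7a-1-3p and let-7c-2-3p sequences are identical, so their reads cannot be told apart.
let-7a-1-3p: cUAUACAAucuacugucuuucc
let-7c-2-3p: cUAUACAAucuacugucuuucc
let-7b-3p: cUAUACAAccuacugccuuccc
let-7f-1-3p: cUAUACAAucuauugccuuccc
let-7c-1-3p: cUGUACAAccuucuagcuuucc
let-7e-3p: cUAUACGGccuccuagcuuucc

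The next set holds the miRNAs with the largest nuclear enrichment for which the table had a sequence. The hairpins of miR-3535, miR-5121 and miR-1291 overlap annotated small nucleolar RNAs (snoRNAs).
miR-3535: uGGAUAUGaugacugauuaccugaga
miR-5121: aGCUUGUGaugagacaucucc
miR-1291: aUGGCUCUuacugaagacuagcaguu
miR-31-5p: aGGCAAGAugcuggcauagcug

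The last set holds the 6 miRNAs with the largest cytoplasmic enrichment, together with miR-27a-3p, from the same hairpin as the first of them.
miR-27a-5p: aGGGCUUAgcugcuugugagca
miR-27a-3p: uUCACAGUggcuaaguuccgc
miR-877-3p: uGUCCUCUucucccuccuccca
miR-219a-1-3p: aGAGUUGCgucuggacgucccg
miR-25-5p: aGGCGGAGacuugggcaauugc
miR-148a-5p: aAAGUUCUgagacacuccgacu
miR-16-1-3p: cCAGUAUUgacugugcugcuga

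The 4 libraries at 2 h held 4049049 and 3481688 reads in the nucleus and 7283309 and 6635673 reads in the cytoplasm, and the 12 libraries ranged from 3379276 to 7787926. No miRNA had fewer than 10 reads in any library, so a miRNA that was nearly lacking in 1 fraction is not in the table. The most abundant miRNA in every library, miR-21a-5p, made up 48.3% and 49.9% of the nuclear reads and 56.8% and 57.8% of the cytoplasmic reads at 2 h. The endothelial marker miR-126a-3p was measured at 674 and 457 normalized counts in the nucleus and 575 and 513 in the cytoplasm, and these ranges overlapped. Of the 9 listed epithelial miRNAs, 6 were measured, with summed levels of 35814 and 37809 normalized counts in the nucleus and 41661 and 60946 in the cytoplasm. Of these sums, miR-182-5p alone gave 13178 and 15288 in the nucleus and 17725 and 25163 in the cytoplasm. The mean of miR-183-5p was 20979.5 over the 8 libraries of 0 h and 24 h. The levels of miR-200c-3p (39.8 and 29.6 against 16.6 and 33.8) and miR-203-3p (46.7 and 35.8 against 44.5 and 71.1) were low, and their fractions overlapped. Some miRNAs listed for epithelium were thus also present in this line. The marker lists of other cell types held few measured miRNAs, and of these miR-206-3p, a skeletal muscle miRNA, was higher in the nucleus (926 and 670.1 against 259 and 272). In the cytoplasm, miR-200b-3p of epithelium (34.3 and 32.7 against 71.8 and 112) and miR-122-5p of liver (31.6 and 39.0 against 73.5 and 92.2) were higher. The other measured liver miRNAs, miR-192-5p (1714 and 1398 against 1481 and 1826) and miR-194-5p (42.6 and 21.8 against 45.7 and 33.8), overlapped between the fractions. miR-200b-3p lost its call without cytoplasm 2 h replicate 2. miR-122-5p lost its call when scaled to miR-186-5p, and also without nucleus 2 h replicate 1 or either cytoplasm 2 h replicate. The part of other cell types in the fraction differences was not tested. The study used equal input RNA for each library, and read counts were divided by a size factor. A ratio thus compares levels relative to the other miRNAs of each fraction. In the sequencing data, less of a miRNA per cell cannot be told apart from more of all other small RNA. For miR-1291, miR-3535, miR-27a-5p and miR-210-3p, the paper repeated RT-qPCR on fresh C166 cultures with a synthetic spike added to each fraction. It reported much the same outcome with the spike as with miR-186-5p as the reference. The paper described no such check for the other miRNAs.

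Many miRNAs differed between the fractions. Of 350 miRNAs, 125 (35.7%) were called at 2-fold or more with an adjusted p under 0.01 (limma on log2(normalized count + 1), Benjamini-Hochberg adjustment), of which 55 (15.7%) were nuclear-enriched and 70 (20.0%) were cytoplasm-enriched. The normalized count is the read count divided by 1 size factor per library, and the added 1 makes the fold change of low miRNAs slightly too small. For 275 miRNAs (78.6%) the 2 nuclear values did not overlap the 2 cytoplasmic values, 139 with the nucleus higher and 136 with the cytoplasm higher, and this held for all 125 called miRNAs. The median log2 nucleus/cytoplasm ratio over the 350 miRNAs was 0.02, and the median standard error of a ratio was 0.21. At least 8-fold differences were found for 5 nuclear and 11 cytoplasmic miRNAs, and at least 4-fold differences for 18 and 20.

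**Figure D1:**
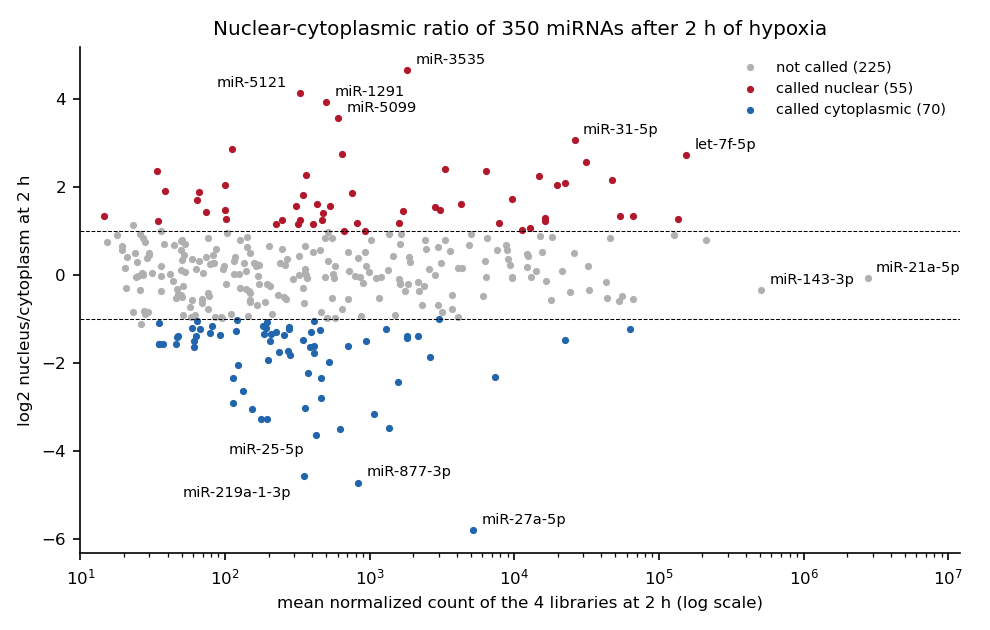
Log2 nucleus/cytoplasm ratio at 2 h (y axis) against the mean normalized count of the 4 libraries (x axis, log scale), 1 point per miRNA, with dashed lines at 2-fold. The 55 red miRNAs were called nuclear, the 70 blue miRNAs cytoplasmic, and miR-21a-5p, the most abundant, lies near 0.

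The division into nuclear and cytoplasmic calls depended on the scaling. With the libraries scaled to their total count, 51 miRNAs were called nuclear and 85 cytoplasmic, and with a total that leaves out miR-21a-5p (the miR-21a-5p-free total), 34 and 102 were called. The median ratio of all miRNAs was -0.13 and -0.38 under these scalings, so a ratio is best read relative to that median. Scaled to miR-186-5p, the reference of the study's RT-qPCR, 48 were called nuclear and 74 cytoplasmic. Under the miR-21a-5p-free total, 21 of the 55 nuclear calls were lost, with log2 ratios from 0.59 to 0.95. Of the miRNAs described below, these were let-7g-5p, miR-16-5p, miR-17-5p, miR-19a-3p, miR-19b-3p, miR-20a-5p, miR-30d-5p, miR-30e-5p, miR-106b-5p, miR-107-3p, miR-155-5p, miR-222-3p, miR-494-3p and miR-497-5p.

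The 3 most abundant miRNAs were not called. miR-21a-5p had 2684440 and 2705210 normalized counts in the nucleus and 2453030 and 3243850 in the cytoplasm, which overlapped (log2 ratio -0.07, SE 0.19). miR-143-3p, a miRNA best known from smooth muscle, had 442436 and 442590 against 448740 and 695284, a log2 ratio of -0.34 that did not pass the test (adjusted p = 0.13). let-7i-5p, the third most abundant, had 246231 and 291705 against 133097 and 177888, a ratio that passed the test (log2 ratio 0.80, adjusted p = 0.0011, limma) but stayed under 2-fold. In the 5 classes of 70 miRNAs ordered by abundance, the nuclear calls numbered 4, 7, 13, 12 and 19 from the lowest to the highest class, and the cytoplasmic calls 10, 16, 27, 13 and 4. The most abundant class, with mean normalized counts from 3099 upward, had a median log2 ratio of 0.47. Together the 55 nuclear-enriched miRNAs took 20.7% and 17.9% of the nuclear counts and 6.52% and 5.65% of the cytoplasmic counts. The 70 cytoplasm-enriched miRNAs took 1.17% and 1.21% of the nuclear counts and 3.76% and 3.96% of the cytoplasmic counts.

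The 3 miRNAs with the largest nuclear enrichment came from hairpins that overlap snoRNAs. miR-3535, whose hairpin (chr1:86351981-86352127, - strand, GRCm38) overlaps an snoRNA annotated within Ncl, the nucleolin gene, had 3379 and 3620.1 normalized counts in the nucleus and 91.3 and 204 in the cytoplasm. It was 25.4-fold enriched in the nucleus (log2 ratio 4.67, SE 0.28, adjusted p = 1.8e-10, limma). miR-5121 (chr7:45126918-45126991, - strand), which overlaps Snord33 in the ribosomal protein gene Rpl13a, had 613 and 642 against 32.6 and 36.4. Both nuclear values were far above both cytoplasmic values for this miRNA, at a log2 ratio of 4.15 (SE 0.28). miR-1291 (chr15:98519762-98519878, - strand), which overlaps Snora34 in an intron of Kansl2, had 639 and 1251 against 49.8 and 66.0, a log2 ratio of 3.94 (SE 0.42).

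Of the 13 measured miRNAs with a hairpin that overlaps an annotated snoRNA or small Cajal body RNA, 8 were called nuclear and none cytoplasmic, against 15.7% and 20.0% of all miRNAs, and their median log2 ratio was 1.48 against 0.02. For 6 of the 13, both arms of miR-677 and of miR-3068, miR-1839-5p and miR-1949, the overlapping annotation is the miRNA gene itself, which GENCODE classes as an snoRNA, and of the other 7, 4 were called nuclear with a median log2 ratio of 1.82. snoRNAs guide the chemical modification of ribosomal RNA in the nucleolus, and reads from an snoRNA and from a miRNA annotated inside it cannot be told apart in this table. The other 5 called members were miR-1949, both arms of miR-677, miR-1839-5p and miR-1843b-3p, with log2 ratios of 2.87, 1.86 (5p), 1.48 (3p), 1.45 and 1.82. For most of these the nuclear libraries were uneven. miR-1949 had 75.5 and 332 normalized counts in the nucleus and 17.8 and 24.5 in the cytoplasm, and nuclear replicate 2 was the higher in miR-1291, miR-677-5p, miR-677-3p and miR-1843b-3p as well. The 5 members that were not called, both arms of miR-1843a and miR-3068 and miR-1843b-5p, had log2 ratios from 0.02 to 0.46. Without cytoplasm 2 h replicate 1, miR-677-5p was no longer called (log2 ratio 1.38, adjusted p = 0.0123, limma), and 7 of the 13 were. Another 2 miRNAs, with no snoRNA annotated at their hairpins, stood with these. miR-5099 had 768 and 1477 against 71.8 and 110 (log2 ratio 3.57), and miR-6539, from an intron of Dock5, had 1212 and 1008 against 122 and 213 (log2 ratio 2.77).

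**Figure D2:**
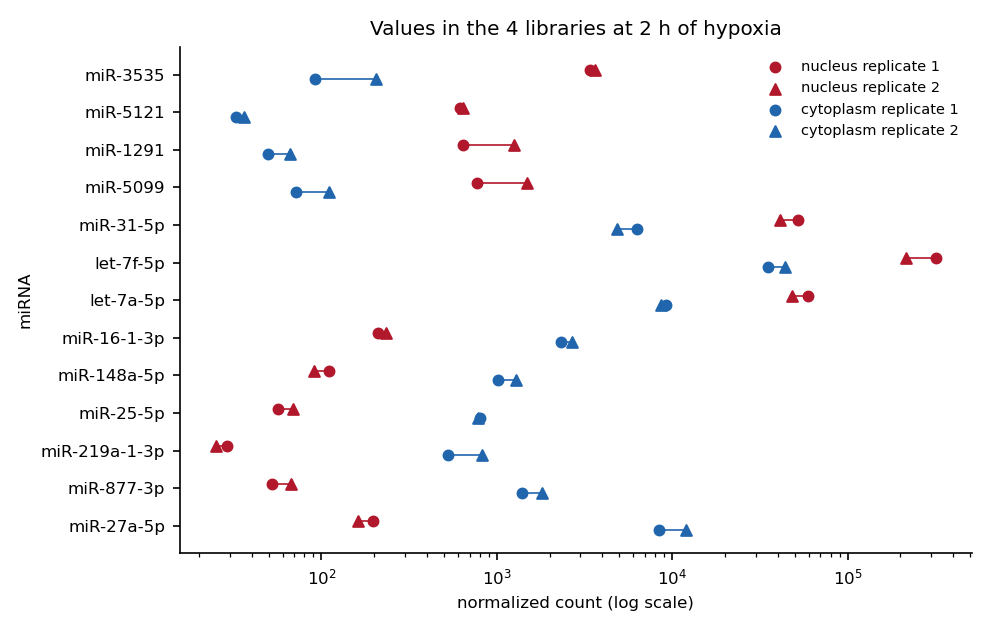
Normalized counts (x axis, log scale) of 13 miRNAs (y axis) in the 4 libraries at 2 h; circles are replicate 1, triangles replicate 2, red the nucleus and blue the cytoplasm, with a line joining replicates. In each of the 13 miRNAs both values of one fraction lie above both values of the other.

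The let-7 5p arms were the largest group of abundant miRNAs on the nuclear side. The let-7 family restrains growth and marks differentiated cells, and 9 of the 10 measured 5p arms share the seed GAGGUAG, in capitals in the sequences above. The seed of let-7j, the other arm, is GAGGUAU. let-7f-5p had 319347 and 215977 normalized counts in the nucleus and 35256 and 43991 in the cytoplasm, a 6.67-fold nuclear enrichment (log2 ratio 2.74, SE 0.20, adjusted p = 2.5e-09, limma). let-7a-5p had 59164 and 48356 against 9260.2 and 8583, with a log2 ratio of 2.58 (SE 0.17). The lowest nuclear value was more than the highest cytoplasmic value in all 10 measured let-7 5p arms, against 139 of all 350 miRNAs. Of these 10 arms, 8 were called nuclear and none cytoplasmic, against 15.7% and 20.0% of all miRNAs. Their median log2 ratio was 2.07 against 0.02 for all miRNAs. The call held for let-7e-5p (2.26), let-7c-5p (2.15), let-7b-5p (2.09), let-7d-5p (2.06), miR-98-5p (1.49) and let-7g-5p (1.34), each value a log2 ratio. let-7i-5p (0.80) and let-7j (0.66) lay under 2-fold. The 10 arms together took 15.7% and 15.0% of the nuclear counts and 5.76% and 5.37% of the cytoplasmic counts. The members are near-identical in sequence, and the value of a single member is uncertain where reads could match several of them. Under the other scalings their median log2 ratio lay between 1.66 and 2.06, and between 7 and 8 were called.

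Among the other nuclear-enriched miRNAs, miR-31-5p stood highest. This miRNA, encoded at chr4:88910557-88910662, - strand, had 52394 and 40924 normalized counts in the nucleus and 6275 and 4865 in the cytoplasm, an 8.38-fold enrichment (log2 ratio 3.07, SE 0.17, adjusted p = 1.3e-10, limma). miR-185-5p, from an intron of Tango2, had 6176 and 4943 against 1096 and 984 (log2 ratio 2.41, SE 0.16). miR-103-3p and miR-107-3p, encoded in introns of pantothenate kinase genes and known to target Dicer, had log2 ratios of 2.38 and 1.16. For miR-103-3p the values were 11144 and 10229 in the nucleus and 2209.5 and 1912 in the cytoplasm, far apart relative to the spread between replicates. miR-107-3p lost its call without cytoplasm 2 h replicate 2 (log2 ratio 0.82) and with the total without miR-21a-5p (0.75). The inflammation-linked miRNAs miR-146a-5p, a feedback inhibitor of NF-κB signalling, and miR-155-5p, processed from the Mir155hg transcript, were also called nuclear, at log2 ratios of 2.05 and 1.18. miR-146a-5p had 185 and 139 against 35.6 and 40.6, and miR-155-5p had 2203 and 2200.4 against 927 and 1014.

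Members of the miR-17-92 cluster and its paralogs, polycistrons that promote proliferation, were called in both directions. There were 6 nuclear and 2 cytoplasmic calls among 15 measured members, against 15.7% and 20.0% of all miRNAs, and the median log2 ratio of the 15 was 0.49. Of the 5 miRNAs with the seed AAAGUGC, 4 were called nuclear: miR-106a-5p (1.71), miR-20a-5p (1.29), miR-17-5p (1.19) and miR-106b-5p (1.00, at the 2-fold limit), while miR-93-5p had a log2 ratio of 0.56. miR-20a-5p had 26023 and 20522 against 10766 and 8251, with both nuclear values the higher. miR-19a-3p (1.16) and miR-19b-3p (1.26) were the other nuclear calls, and the cytoplasmic calls were the minor arms miR-25-5p (-3.64) and miR-93-3p (-1.39), the latter not called without nucleus 2 h replicate 1 (adjusted p = 0.011, limma). The number of nuclear calls fell to 1 under the miR-21a-5p-free total, and was 4 without cytoplasm 2 h replicate 2 or without nucleus 2 h replicate 1. In the miR-15/16 family, regulators of the cell cycle, 4 of 8 measured members were called nuclear and 2 cytoplasmic, and the nuclear calls fell to 2 under the miR-21a-5p-free total. The nuclear members were the 5p arms of miR-195a (1.90), miR-15b (1.42), miR-497 (1.24) and miR-16 (1.19), and the cytoplasmic members were miR-16-1-3p (-3.49) and miR-195a-3p (-2.33).

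On the cytoplasmic side, miR-27a-5p had the largest difference in the table. It is 1 arm of a hairpin at chr8:84208672-84208758, + strand, in the miR-23a/27a/24-2 cluster, and had 196 and 161 normalized counts in the nucleus and 8442 and 11913 in the cytoplasm. The difference was 56.2-fold (log2 ratio -5.81, SE 0.22, adjusted p = 7.7e-13, limma). Its partner arm miR-27a-3p had 15584 and 13159 against 11767 and 9422, slightly higher in the nucleus and not called (log2 ratio 0.44, adjusted p = 0.026). The arms were at like levels in the cytoplasm, and in the nucleus the 5p arm was far below the 3p arm.

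The miRNAs that followed were mostly at low levels in the nucleus. miR-877-3p, a mirtron from an intron of Abcf1, had 52.2 and 67.0 in the nucleus and 1390 and 1811 in the cytoplasm (log2 ratio -4.72, SE 0.22). miR-219a-1-3p had 28.8 and 24.9 against 527 and 822 (log2 ratio -4.57, SE 0.25). miR-25-5p, from the Mcm7 host gene, had 56.3 and 68.6 against 799 and 777 (log2 ratio -3.64, SE 0.21). In each of these 3 miRNAs the fractions differed by over 8-fold, and replicates differed much less than the fractions did. miR-148a-5p (-3.50), miR-16-1-3p (-3.49), miR-301b-5p (-3.28), let-7c-1-3p (-3.27), miR-301a-5p (-3.16) and miR-374b-3p (-3.06) completed the 10 with the largest cytoplasmic log2 ratios. The levels of the 10 at 2 h ran from 153 to 5178 normalized counts on average, against 112 to 153643 for the 10 with the largest nuclear ratios. A few abundant miRNAs were also cytoplasm-enriched. miR-148a-3p, which targets the DNA methyltransferase Dnmt1, had 36497 and 38019.7 against 69931 and 107515 (log2 ratio -1.22) and fell under 2-fold without cytoplasm 2 h replicate 2 (log2 ratio -0.91). miR-10b-5p, encoded among the Hoxd genes and linked to angiogenesis, had 12264 and 11229.7 against 27752 and 38569.8 (log2 ratio -1.48, adjusted p = 3.0e-06, limma).

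Most 3p arms of the let-7 family lay opposite to the 5p arms. Of 10 measured let-7 3p arms, 7 were called cytoplasmic and none nuclear, against 20.0% and 15.7% of all miRNAs. Their median log2 ratio was -1.34 against 0.02 for all. The 3 arms that were not called, let-7i-3p (-0.32), let-7d-3p (-0.18) and miR-98-3p (0.04), lay near the middle. let-7c-1-3p had 31.6 and 40.5 in the nucleus and 363 and 346 in the cytoplasm, while let-7c-5p, its partner, had 77053 and 77569.7 in the nucleus against 17757 and 16974. let-7b-3p had 97.5 and 132 against 694 and 903, and let-7b-5p had 34496 and 37769 against 9032 and 7943. In both hairpins the nucleus was the higher fraction for the 5p arm and the lower for the 3p arm, with no overlap. The other calls were let-7f-1-3p (-1.81), let-7a-1-3p (-1.43), let-7c-2-3p (-1.40), let-7e-3p (-1.29) and let-7f-2-3p (-1.27), given as log2 ratios. As let-7a-1-3p and let-7c-2-3p share 1 sequence, the 7 calls stand for fewer independent measurements. let-7f-2-3p was no longer called without cytoplasm 2 h replicate 1, cytoplasm 2 h replicate 2 or nucleus 2 h replicate 2.

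Arms of the same hairpin were compared across the table. For 100 pairs, with 95 different major arms, the minor arm was defined as the one with the lower mean in the 8 libraries of 0 h and 24 h, so that no library of 2 h chose it. The minor arm had the lower nucleus/cytoplasm ratio in 63 of 100 pairs, and the median of the minor arm's log2 ratio minus that of the major arm was -0.44. Minor arms were called cytoplasmic in 35 pairs and nuclear in 9, and major arms in 15 and 19. In 10 pairs the minor arm was called cytoplasmic and the major arm nuclear, 7 of which are let-7 pairs and the others those of miR-31, miR-30d and miR-222. miR-31-3p, with 109.9 and 122 against 230.1 and 309, fell just under 2-fold without cytoplasm 2 h replicate 2 (log2 ratio -0.99). The reverse was found in 3 pairs, of miR-671, miR-195a and miR-16, in which the arm with more reads was the cytoplasmic one.

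The position of the arm went along with this difference. Where the minor arm was the 3p arm, its ratio was the lower in 42 of 52 pairs, with a median difference of -1.44, and where it was the 5p arm, in 21 of 48, with a median difference of 0.10. Without the let-7 family the counts were 32 of 42 and 21 of 48. Over all named arms in the table, 47 of 161 3p arms (29.2%) were called cytoplasmic and 16 (9.94%) nuclear, against 23 (13.5%) and 33 (19.4%) of 170 5p arms. The count also differed with the gap in abundance between the arms. In the 50 pairs with the wider gap the minor arm was the lower in 39, with a median difference of -1.31, and in the other 50 in 24, with a median of 0.06. No test was made of these differences, since pairs share families and clusters.

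**Figure D3:**
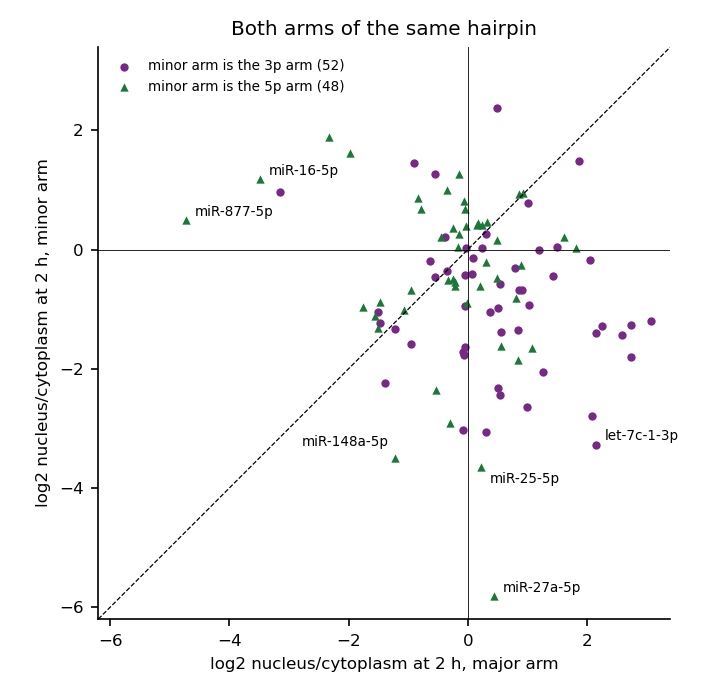
Log2 nucleus/cytoplasm ratio at 2 h of the minor arm (y axis) against the major arm (x axis) for 100 pairs of arms, purple circles where the minor arm is the 3p arm and green triangles where it is the 5p arm. Points below the dashed diagonal, 63 of 100, have the lower ratio in the minor arm.

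The imprinted Dlk1-Dio3 cluster held 24 of the 70 cytoplasm-enriched miRNAs. This large cluster on chromosome 12 is transcribed from the maternal allele. Its 38 measured miRNAs lie between positions 109580233 and 109743795 (GRCm38), and 1 of them was called nuclear besides the 24 cytoplasmic ones, against 15.7% and 20.0% of all miRNAs. The log2 ratio was below 0 in 37 of the 38, with a median of -1.20 against 0.02. miR-434-3p had the largest difference, with 124 and 136 in the nucleus and 614 and 615 in the cytoplasm (log2 ratio -2.24, SE 0.23). miR-299a-3p (-1.93), miR-136-3p (-1.76) and miR-543-3p (-1.61) followed. Both arms were called cytoplasmic in 4 of the 8 measured pairs of this cluster, and the minor arm was the lower in 3 of the 8. miR-494-3p was the exception, with 365 and 327 against 158 and 132 (log2 ratio 1.25, adjusted p = 0.001, limma), and it was not called without cytoplasm 2 h replicate 2 or when scaled to miR-186-5p or by the miR-21a-5p-free total. The count of cytoplasmic calls in the cluster was 18 without cytoplasm 2 h replicate 2 and 33 when scaled by the miR-21a-5p-free total. The cluster in intron sequence of Sfmbt2, another large imprinted miRNA group, had 2 of 17 members called nuclear, miR-669a-3p (2.37) and miR-466d-3p (1.92), and none cytoplasmic. These families hold near-identical copies, so their single values are uncertain. Its median log2 ratio was 0.27, and -0.14 when scaled by the miR-21a-5p-free total.

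The smaller families held few members each, and many of their counts lay near the shares of all miRNAs, 15.7% nuclear and 20.0% cytoplasmic, so the counts describe the members only. In the miR-30 family 2 of 10 members were called nuclear, miR-30d-5p (1.27) and miR-30e-5p (1.02), and 3 cytoplasmic, all 3p arms: miR-30b-3p (-2.64), miR-30c-2-3p (-2.43) and miR-30d-3p (-2.05). The nuclear and cytoplasmic calls of this family were 1 and 4 on scaling to miR-186-5p or to the total count, and 0 and 5 under the miR-21a-5p-free total. In the miR-181 family the 3 cytoplasmic calls of 7 members were likewise 3p arms, led by miR-181a-1-3p (-3.03), and none was nuclear. In the miR-125 family 2 of 5 were called cytoplasmic, miR-125b-1-3p (-2.33) and miR-125a-3p (-1.05). miR-125b-1-3p was abundant for a minor arm, with 2154 and 2759.9 in the nucleus and 12229 and 12286 in the cytoplasm, while miR-125a-3p fell under 2-fold without cytoplasm 2 h replicate 2 (log2 ratio -0.90) or nucleus 2 h replicate 1 (log2 ratio -0.99). In the miR-10/99/100 family 2 of 8 were called cytoplasmic, both arms of miR-10b, of which the 3p arm was not called without nucleus 2 h replicate 1 (adjusted p = 0.012, limma), and the highest log2 ratio in that family was -0.35. In the miR-221/222 cluster, known in endothelial cells for restraining Kit, miR-222-3p was called nuclear (1.07) and the 5p arms miR-221-5p (-1.86) and miR-222-5p (-1.64) cytoplasmic. The miR-222-3p ratio lay close to 2-fold and lost its call without nucleus 2 h replicate 2 (log2 ratio 0.99), without cytoplasm 2 h replicate 1 (0.98) and under 3 of the scalings. Of 6 mirtrons, miRNAs excised as short introns, 2 were called cytoplasmic, miR-877-3p and miR-702-3p, and none nuclear. The latter lost its call when any 1 of the 4 libraries was left out, with log2 ratios from -1.22 to -0.95. In the miR-23/27/24 clusters 2 of 9 were called cytoplasmic, the 5p arms of miR-27a and miR-27b (-2.35). None of the 5 members of the miR-34 family was called, and 2 were called cytoplasmic under the miR-21a-5p-free total.

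**Figure D4:**
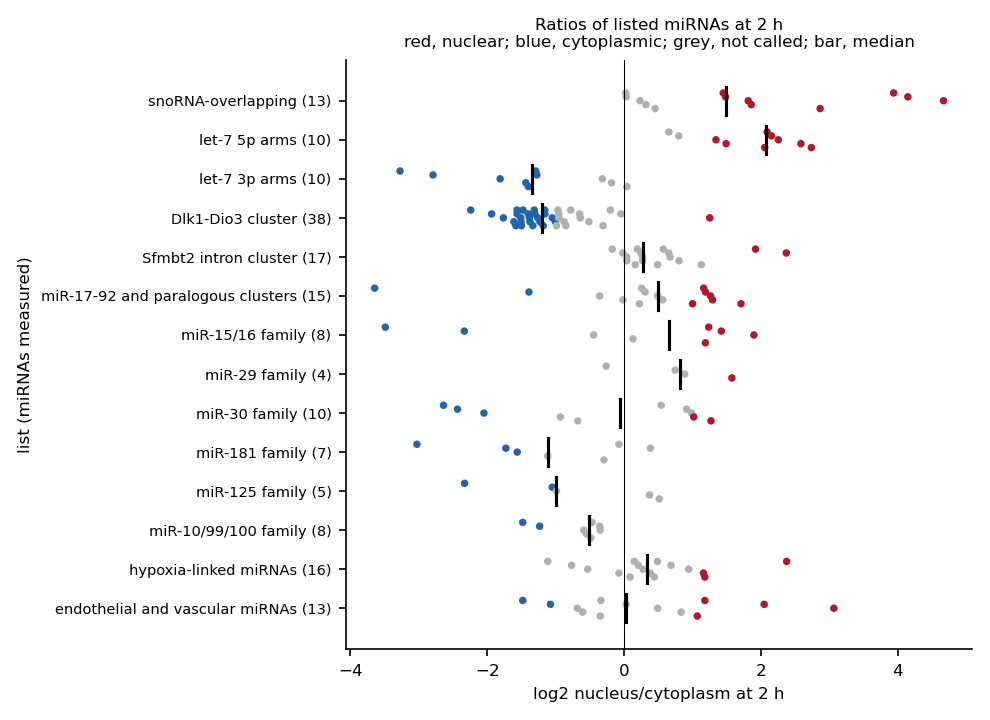
Log2 nucleus/cytoplasm ratios at 2 h (x axis) of the miRNAs in 14 lists (y axis, number measured in brackets), with red for nuclear calls, blue for cytoplasmic calls, grey for miRNAs that were not called and a bar at the median. The medians of the let-7 5p arms (2.07) and the let-7 3p arms (-1.34) lie on opposite sides.

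miRNAs linked to hypoxia were mostly near the middle. miR-210-3p, the miRNA most strongly induced by hypoxia-inducible factors, had 2448 and 1906 normalized counts in the nucleus and 1143 and 1099 in the cytoplasm at 2 h. The fractions did not overlap, and the ratio passed the test but stayed just under 2-fold (log2 ratio 0.95, SE 0.16, adjusted p = 4.8e-05, limma). Of 16 measured miRNAs in the list linked to hypoxia, 3 were called nuclear, miR-103-3p, miR-107-3p and miR-155-5p, and none cytoplasmic, against 15.7% and 20.0% of all. Of 13 listed endothelial and vascular miRNAs, 4 were called nuclear, miR-31-5p, miR-146a-5p, miR-155-5p and miR-222-3p, and 2 cytoplasmic, miR-10b-5p and miR-132-3p (-1.07), an angiogenic miRNA induced by CREB, against the same shares of all. miR-132-3p fell under 2-fold without cytoplasm 2 h replicate 2 (log2 ratio -0.94) or without nucleus 2 h replicate 2 (log2 ratio -0.86). The medians of these lists were 0.33 and 0.03. Under the miR-21a-5p-free total both medians were below 0 (-0.08 and -0.38), and the nuclear and cytoplasmic calls were 1 and 2 in the hypoxia list and 2 and 4 in the endothelial and vascular list. In the miR-29 family, miR-29b-3p ends in AGUGUU, a hexanucleotide described as a nuclear signal, and had 453 and 477 in the nucleus and 169.6 and 142 in the cytoplasm (log2 ratio 1.58, adjusted p = 1.3e-05, limma). miR-29a-3p (0.89) and miR-29c-3p (0.75), which do not hold it, had lower log2 ratios, under 2-fold, and were not called. Both were still higher in the nucleus without overlap, miR-29a-3p with 19622 and 19363 against 11448 and 9722. miR-29c-3p was at low levels (34.3 and 35.8 against 22.5 and 18.6). With no limit on the fold, 2 of the 4 measured members of the family passed the test. Over all times the paper reported both as significantly nuclear, and it proposes that the hexanucleotide is not a true nuclear signal in this setting. Among the 301 sequences in the reference table, 2 held AGUGUU, and the other, miR-199a-5p, had 11459 and 9983 in the nucleus and 7799 and 5662 in the cytoplasm, under 2-fold and not called (log2 ratio 0.69). The table had no sequence for miR-199b-5p, which the study also names as a carrier. It was not called either (log2 ratio 0.81), and both ratios were below that of miR-29a-3p.

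Sequence features differed between the called groups. The first base was U in 63.0% of the 46 nuclear-enriched miRNAs with a sequence, 31.8% of the 66 cytoplasm-enriched miRNAs and 42.5% of all 301. Without the let-7 family these shares were 57.9%, 35.6% and 42.3%. The median G+C content was 42.0% in nuclear-enriched, 50.0% in cytoplasm-enriched and 47.8% in all miRNAs. By seed, GAGGUAG (let-7 5p) had 8 of 9 members called nuclear, AAAGUGC (miR-17 family) 4 of 5 and AGCAGCA (miR-15/16 family and miR-322-5p) 3 of 5, while UAUACAA (let-7 3p) had 4 of 5 called cytoplasmic. The shares over all miRNAs were 15.7% nuclear and 20.0% cytoplasmic, and these seeds recount families described above. Seeds ACAUUCA and AUUGCAC, with 4 members each, had no call. The UAUACAA calls count the shared sequence of let-7a-1-3p and let-7c-2-3p for both names. Under the miR-21a-5p-free total, let-7g-5p, miR-16-5p, miR-17-5p, miR-20a-5p and miR-106b-5p lost their nuclear calls. Of the placed hairpins, 29 of 70 cytoplasm-enriched, 9 of 54 nuclear-enriched and 107 of all 344 miRNAs lay outside annotated genes. Without the Dlk1-Dio3 cluster these counts were 12 of 46, 8 of 53 and 81 of 306.

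The ratios at 2 h were next set beside those in normoxia (0 h), to ask whether the distribution changed early in hypoxia. Across the 350 miRNAs the ratios at 2 h and 0 h, which share no library, had a Pearson r of 0.901, given as a description over miRNAs that are not independent. Of the 125 miRNAs called at 2 h, 124 had the same sign at 0 h and 99 were at least 2-fold there. The exception was miR-702-3p. The difference between the ratios was tested as an interaction in the limma fit, with calls made where the adjusted p was under 0.05. At 2 h 15 miRNAs (4.29%) were more nuclear than at 0 h and 5 (1.43%) were less nuclear, and 91 had an unadjusted p under 0.05. The number of calls depended on single libraries. None was left without cytoplasm 0 h replicate 1, nucleus 0 h replicate 2, cytoplasm 2 h replicate 2 or nucleus 2 h replicate 1, and 1 was left without cytoplasm 2 h replicate 1. There were 66 without cytoplasm 0 h replicate 2, 38 without nucleus 0 h replicate 1 and 52 without nucleus 2 h replicate 2. Scaling to miR-186-5p also left none, and scaling to the total count gave 13, of which 3 were more and 10 less nuclear. At an unadjusted p under 0.05, these settings without a call by limma had 58 to 118 miRNAs. miR-21a-5p took 45.1% and 37.4% of the nuclear reads at 0 h and 57.0% and 57.2% at 24 h, and the part of this shift in the differences between times was not tested.

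The miRNA with the largest rise in the ratio was miR-301a-3p, from an intron of Ska2. It had 62.0 and 55.9 normalized counts in the nucleus and 119.6 and 98.9 in the cytoplasm at 0 h. After 2 h it had 147 and 123 in the nucleus and 86.0 and 54.1 in the cytoplasm. The cytoplasm was the higher fraction in normoxia and the nucleus at 2 h, and the log2 ratio was 1.84 higher at 2 h (SE 0.34, adjusted p = 0.018, limma). All 15 miRNAs that were more nuclear at 2 h had a log2 ratio below 0 at 0 h. Being chosen for a ratio higher at 2 h than at 0 h favours a low ratio at 0 h, so no conclusion is drawn from this. In the other direction, miR-382-3p of the Dlk1-Dio3 cluster had 310.1 and 493 in the nucleus and 83.1 and 163 in the cytoplasm at 0 h, and after 2 h it had 170.3 and 195 in the nucleus and 192 and 228 in the cytoplasm. Its log2 ratio was 1.74 at 0 h and -0.20 at 2 h, a difference of -1.94 (SE 0.40, adjusted p = 0.021, limma). The spread of all ratios was 1.47 at 0 h, 1.32 at 2 h and 1.09 at 24 h (SD over miRNAs, log2).

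More miRNAs were called in the comparison of the ratios at 2 h with those after 24 h of hypoxia. Over the 350 miRNAs, 28 (8.0%) were more nuclear at 2 h than at 24 h and 19 (5.43%) were less nuclear, with 114 at an unadjusted p under 0.05 and a Pearson r between the ratios of 0.816. The comparisons with 0 h and with 24 h share the 2 h libraries. Of the 28, 25 were called nuclear at 2 h, and all 28 were within 2-fold of equal at 24 h. Of the 19, 15 were called cytoplasmic at 2 h and 3 nuclear. Both sets were chosen by the difference between the ratios, which favours such values, so no conclusion is drawn from these counts. Leaving out 1 library gave 32 to 66 calls. The division between the directions moved with the scaling, to 46 more and 11 less nuclear with the total count and to 24 and 53 with that total without miR-21a-5p.

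**Figure D5:**
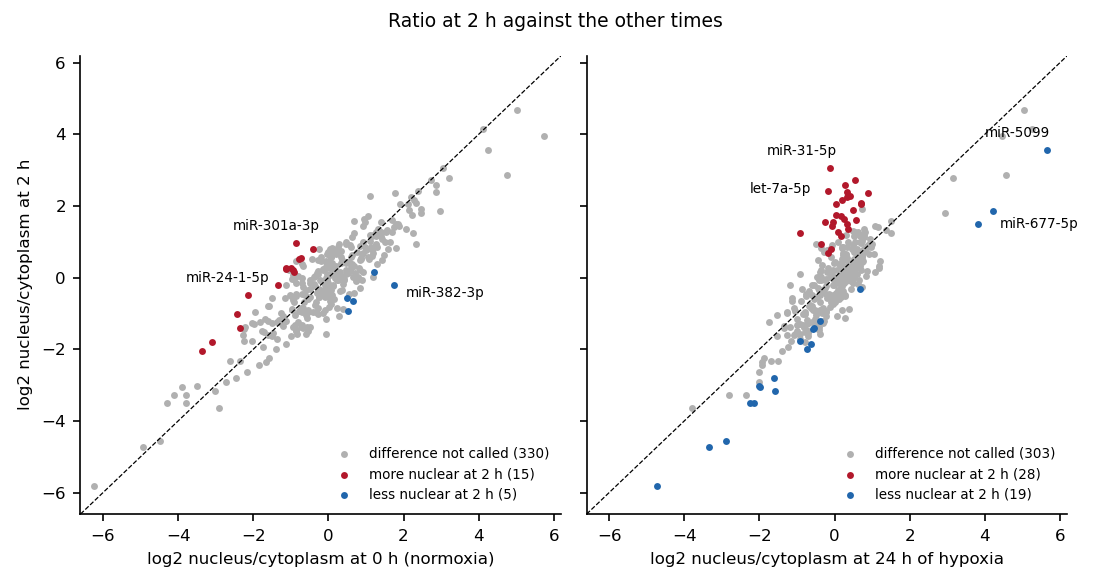
Log2 nucleus/cytoplasm ratio at 2 h (y axis) against that at 0 h (left, x axis) and at 24 h (right, x axis), 1 point per miRNA, with the dashed line at equal ratios. Red and blue mark ratios called different, 15 and 5 against 0 h and 28 and 19 against 24 h.

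Among the miRNAs that were more nuclear at 2 h, the largest differences lay in abundant nuclear miRNAs whose nuclear level was lower at 24 h. miR-31-5p had 52394 and 40924 normalized counts in the nucleus at 2 h and 6012 and 5307 at 24 h, while its cytoplasmic values were 6275 and 4865 at the earlier time and 5505 and 6969.9 at the later. The nuclear values of the times did not overlap and the cytoplasmic values did, and the log2 ratio was 3.20 higher at 2 h (SE 0.25, adjusted p = 9.8e-08, limma). miR-185-5p had 6176 and 4943 in the nucleus at 2 h, which were 1076 and 1169 at 24 h, while its cytoplasmic values were 1096 and 984 at 2 h and, at 24 h, 1210.2 and 1336, a difference of 2.59 in the log2 ratio (SE 0.23). For let-7a-5p both fractions moved, from 59164 and 48356 at 2 h to 18466 and 22149 at 24 h in the nucleus, and from 9260.2 and 8583 to 17285 and 15907 in the cytoplasm. Its log2 ratio was 2.58 at 2 h and 0.29 at 24 h, a difference of 2.30 (SE 0.24, adjusted p = 3.2e-06, limma). Of the 10 let-7 5p arms, 8 were more nuclear at 2 h than at 24 h, against 8.0% of all miRNAs. None was more nuclear than at 0 h, against 4.29% of all. Their median log2 ratio was 2.16 at 0 h, 2.07 at 2 h and 0.33 at 24 h. Of the 10 let-7 3p arms, 4 were less nuclear at 2 h than at 24 h, against 5.43% of all miRNAs. Compared with 0 h, 2 were more nuclear, against 4.29% of all, and no call against 0 h was left when scaled to miR-186-5p. The medians of the 3p arms were -2.15, -1.34 and -0.55 at the 3 times.

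Among miRNAs that were less nuclear at 2 h than at 24 h, both arms of miR-677 and miR-5099 differed in both fractions. miR-677-5p went from 842 and 1513 at 2 h to 1781 and 1652 at 24 h in the nucleus, and from 222 and 434 to 97.1 and 85.3 in the cytoplasm, with a difference of -2.36 in the log2 ratio (SE 0.50). miR-5099 went from 768 and 1477 to 1762 and 1524 in the nucleus, and from 71.8 and 110 to 27.5 and 35.5 in the cytoplasm, a difference of -2.10 (SE 0.40). In both, the cytoplasmic values at 2 h lay above those at 24 h and the nuclear values below, without overlap. Nucleus 2 h replicate 2 (1513 and 1477) was close to the lower nuclear value at 24 h (1652 and 1524), and the change within a fraction was not tested. The call of miR-677-5p was lost when scaled to miR-186-5p (adjusted p = 0.059, limma). The median log2 ratio of the 13 snoRNA-overlapping miRNAs was 1.87 at 0 h, 1.48 at 2 h and 2.95 at 24 h. Of the 13, 2 were less nuclear at 2 h than at 24 h and 1, miR-1839-5p, was more nuclear, against 5.43% and 8.0% of all miRNAs. miR-210-3p reached 12744 and 11948 in the nucleus and 6154 and 6195 in the cytoplasm at 24 h, above all 2 h values in both fractions, with a log2 ratio of 1.00 against 0.95 at 2 h (difference -0.05, SE 0.22, adjusted p = 0.88, limma). The Dlk1-Dio3 cluster stayed on the cytoplasmic side, with medians of -0.70 at 0 h, -1.20 at 2 h and -0.82 at 24 h.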

How the data were processed

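Small RNA was sequenced from nuclear and cytoplasmic fractions of C166 cells in 12 libraries, 2 for each fraction at 0 h, 2 h and 24 h. The authors used bcl2fastq, Trimmomatic and Bowtie2 2.1.0 against miRBase release 20, removed miRNAs under 10 reads and divided read counts by a DESeq2 size factor per library. The deposited signal values are these normalized counts for 350 miRNAs, and the deposited columns of the authors' own fold changes and p-values were not used. Multiplied by the size factor recovered for each library, 100% of the values lay within 0.01 of a whole number of reads.

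Values were fitted as log2(normalized count + 1) with limma 3.58.1 (variance trend) in R 4.3.3, with 1 mean for each of 6 groups over 12 libraries and Benjamini-Hochberg adjustment over 350 miRNAs. Contrasts were nucleus against cytoplasm at 2 h (adjusted p under 0.01 and at least 2-fold, the study's thresholds) and the difference of this ratio from that at 0 h or 24 h (adjusted p under 0.05). The fit of nucleus against cytoplasm at 2 h was tested on simulated counts, and the other contrasts and steps were not. p-values rest on the spread between the 2 cultures or samples within a group, pooled over all 6 groups and moderated across miRNAs.

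The members and lists were chosen with earlier results of these data known. Named miRNAs were those the study names, the 10 called miRNAs with the largest difference in each direction and no overlap between libraries, up to 4 of each list by size of difference, the 5 called with the largest change of ratio in each direction against each time, other arms of the same hairpins and the 3 most abundant miRNAs. Members named in the text beyond these complete a count or mark a call that was lost. Alternatives were pseudocounts of 10 and 0.5, a mean of at least 100, 4 other scalings, size factors estimated from the 4 libraries of 2 h, a fit to the 4 libraries of 2 h alone, limma-voom on whole reads, other thresholds, the replicate number as a block and each library left out in turn. Sequences came from RefSeq (GRCm38.p6). Hairpin positions, for 344 miRNAs, came from RefSeq or, where it gave none, from GENCODE release M21 (GRCm38). The overlapping genes and snoRNAs were those of GENCODE. Python 3.11.15, numpy 2.4.6, pandas 2.3.3 and matplotlib 3.10.9 were used.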

Additional observations from a re-analysis of the deposited data

Results flagged for a closer look

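The ratio at 2 h differed from that at another time, by the interaction test in limma, for 20 of the named miRNAs, with values given as the log2 nucleus/cytoplasm ratio at 2 h minus that at the other time. Against 0 h, the ratio was higher at 2 h for miR-301a-3p (1.84), miR-24-1-5p (1.65), miR-132-5p (1.41), miR-331-3p (1.39) and miR-467b-5p (1.38), with adjusted p from 0.018 to 0.046 (limma). It was lower at 2 h for miR-382-3p (-1.94), miR-450b-3p (-1.46), miR-382-5p (-1.29), miR-182-5p (-1.07) and miR-28a-3p (-1.06). All 10 lost their call when scaled to miR-186-5p and when some single libraries were left out.

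Against 24 h, the ratio was higher at 2 h for miR-31-5p (3.20), miR-185-5p (2.59), let-7a-5p (2.30), let-7f-5p (2.2) and miR-494-3p (2.18). It was lower at 2 h for miR-677-5p (-2.36), miR-677-3p (-2.33), miR-5099 (-2.10), miR-219a-1-3p (-1.67) and miR-301a-5p (-1.56). Both arms of the miR-677 hairpin moved together, and at 24 h their nuclear values lay above, and their cytoplasmic values below, those at 2 h without overlap. The change within a fraction was not tested.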

How the results depend on the processing

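The 125 calls at 2 h became 100 to 174 under the alternatives and 109 to 128 when 1 library was left out. No named call changed direction, and 19 of 75 named miRNAs called at 2 h lost their call under at least 1 alternative. The 75 are those named by the rule above. Members given only to complete a count are not among them, and some of these, such as let-7g-5p and miR-17-5p, lost their call too. The comparison with 0 h was not stable, with 20 calls, 13 when scaled to the total count, 0 when scaled to miR-186-5p, 0 at an adjusted p under 0.01 and 0 to 66 when 1 library was left out. The comparison with 24 h gave 47 calls, 77 when scaled by the miR-21a-5p-free total, 30 when scaled to miR-186-5p, 30 at an adjusted p under 0.01 and 32 to 66 when 1 library was left out, and 1 of its 10 named differences, that of miR-677-5p, lost its call. The cause of these changes was not tested. Where 1 library was left out, its group was 1 library, assumed to vary like the others.

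The labels share replicate numbers between the fractions of 1 time but do not say that a number marks 1 culture. The correlation of the deviations of same-numbered libraries was 0.07 at 0 h, 0.24 at 2 h and 0.09 at 24 h. With the replicate number as a block, 127 miRNAs were called at 2 h, 63 against 0 h and 69 against 24 h.

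Depth limits the lowest miRNAs, where a library held as few as 10 reads. The table holds no miRNA under 10 reads in a library, and with 2 libraries per fraction and a median standard error of 0.21 small differences were not detectable.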
